A study of Mus musculus with 4 samples.

Results

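The accessible regions assigned to 10 genes of bone morphogenetic protein (BMP) signalling were examined in FRCs, the fibroblastic reticular cells that form the scaffold of the lymph node, in mice. The genes encode the Id proteins (Id1, Id2, Id3, Id4), the receptors Acvr1 and Bmpr1a, the BMP-activated Smads (Smad1, Smad9) and the inhibitory Smads (Smad6, Smad7). A region was a merged run of 300-bp counting windows no more than 100 bp apart, and it was represented by its window of highest count summed over all libraries. It belonged to the protein-coding gene that the midpoint of this window overlapped, or else to the nearest gene within 100 kb. By this rule 116 of 110110 regions belonged to the 10 genes, 31 of them to Id genes, 29 to receptors, 18 to Smad1 and Smad9, and 38 to Smad6 and Smad7. Which gene, if any, such a region regulates was not tested. Windows were selected on their counts summed over the 4 libraries, and the genes were chosen with earlier results of this same contrast known. Counts over the list therefore describe it and support nothing. At the limit of the rule, the farthest region inside lay 99372 bp from Smad1 (log2 -0.37, SE 0.14) and the nearest one outside lay 102022 bp from Smad1 (log2 -0.38, SE 0.13).

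BMP ligands bind type I and type II receptor kinases, and the type I receptors, among them Acvr1 and Bmpr1a, phosphorylate Smad1, Smad5 and Smad9. These Smads enter the nucleus with Smad4, and the Id genes and Smad6 are among their best known targets. Id proteins lack a DNA-binding region and hold E proteins and other helix-loop-helix factors off DNA, whereas Smad6 and Smad7 restrain the receptors and so close a feedback loop.

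ATAC-seq, in which a transposase cuts and tags open DNA, gave the measure of accessibility. FRCs were sorted as BP3-high, podoplanin-positive cells without CD31 and CD45 from brachial, axillary and inguinal nodes of female C57BL/6 mice of 12 weeks. The control group had 2 libraries from Notch2 fl/fl littermates without Cre, and the Notch2_cKO group had 2 libraries from Ccl19-Cre x Notch2 fl/fl mice, so the floxed alleles were shared by both groups. Cre is active where Ccl19 sequence drives it, and the labels do not say what share of the sorted cells had lost Notch2. Nodes of 6 mice were pooled for each library, and 50000 sorted cells were used. The labels say no more about how the pools were separated, so p-values measure the spread between these 4 samples. In such bulk samples, fewer cells with an open site and less opening per cell cannot be told apart.

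The starts of Id2, Id3 and Id4 were the most accessible regions of those genes, and the sequences in front of them are shown because the start regions described below lie over them. They are the 250 bases before the annotated start in RefSeq's promoter table, build GRCm38.p6, written 5′ to 3′ along the gene. Id2 lies on the minus strand (chr12:25096093-25096342), and Id3 (chr4:136143572-136143821) and Id4 (chr13:48260866-48261115) lie on the plus strand. Capitals mark the motif letters found among those searched on both strands.
Id2: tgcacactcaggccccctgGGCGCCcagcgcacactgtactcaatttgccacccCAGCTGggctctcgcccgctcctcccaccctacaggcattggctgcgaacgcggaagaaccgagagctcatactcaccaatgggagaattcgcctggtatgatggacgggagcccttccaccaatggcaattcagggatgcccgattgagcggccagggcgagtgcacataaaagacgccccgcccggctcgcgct
Id3: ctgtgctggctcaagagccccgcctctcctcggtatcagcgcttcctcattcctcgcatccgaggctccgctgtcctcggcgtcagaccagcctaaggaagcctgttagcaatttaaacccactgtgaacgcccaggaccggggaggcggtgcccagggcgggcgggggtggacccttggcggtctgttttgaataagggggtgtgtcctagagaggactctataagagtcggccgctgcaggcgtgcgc
Id4: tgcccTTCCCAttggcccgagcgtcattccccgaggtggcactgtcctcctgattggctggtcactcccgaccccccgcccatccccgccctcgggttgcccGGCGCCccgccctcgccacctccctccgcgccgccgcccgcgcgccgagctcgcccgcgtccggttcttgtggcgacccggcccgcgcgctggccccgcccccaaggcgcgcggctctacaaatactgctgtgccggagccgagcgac
The motifs searched were TGGGAA (the core bound by RBPJ), GGCGCC (a GC-rich Smad motif), GTCTAGAC (a palindromic Smad motif) and the E-boxes CACGTG and CAGCTG. The Id2 promoter held 1 GGCGCC and 1 CAGCTG, and the Id4 promoter held 1 TGGGAA, read on the other strand as TTCCCA, and 1 GGCGCC. None of these letters were found in the Id3 window. Of 32851 promoter windows of this length, 21.6% held TGGGAA, 9.59% GGCGCC, 0.167% GTCTAGAC, 6.02% CACGTG and 13.0% CAGCTG. The capitals in these windows overlap nowhere. A match is a description of the letters and not a site. The promoters were rich in G and C, with 62.8% at Id2, 62.8% at Id3 and 75.6% at Id4 against a median of 52.4% over the table. All 3 promoters lay wholly inside an accessible region. The table held a promoter for 8 of the 10 genes.

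Facts that bear on all results are given once. Summed over the best windows, the depth was 23629588 and 25740366 counts for control 1 and 2, and 30260067 and 12340742 for Notch2_cKO 1 and 2. The labels give every pool as female, yet control 2 had counts at Y-linked genes, 221 at Ddx3y and 201 at Eif2s3y, against 0 in each other library at these genes. Calls lost without it are therefore named below. At the start of Notch2, the targeted gene, levels were 55.3 and 57.5 normalized CPM in the controls and 55.3 and 46.2 in Notch2_cKO (log2 -0.14, SE 0.10, edgeR adjusted p = 0.340). No label places the loxP sites, so this region does not check the deletion. Reticular cell markers had a start region at 6 of 8 genes (Pdpn, Bst1, Pdgfrb, Il7, Ltbr, Col1a1), with mean levels of 12.8 to 37.8 CPM, and no start region of Ccl19 or Pdgfra was analysed here. Starts of blood endothelial markers were measured at 4 of 8 genes. They summed to 30.7 and 32.6 CPM in the controls and 40.9 and 41.8 in Notch2_cKO. Of these starts Tek alone was called, rising from 14.8 to 25.0 CPM (edgeR adjusted p = 0.000305). Kdr (8.13 to 7.73 CPM), Plvap (2.69 to 2.35) and Erg (5.97 to 6.29) were not called. The defining blood endothelial markers Pecam1 and Cdh5 had no start region. Starts of 5 of 6 mural markers summed to 91.9 and 95.1 CPM in the controls and 76.0 and 76.1 in Notch2_cKO. Acta2 (15.7 to 11.4 CPM) and Myh11 (33.6 to 25.1) were called lower. Rgs5 (8.85 to 8.89 CPM), Des (29.9 to 26.8) and Cspg4 (5.47 to 3.90) were not called. The lymphatic endothelial list had start regions at 2 of 6 genes, summing to 21.7 to 24.2 CPM over the 4 libraries. Among the 8 leukocyte markers the start of Spi1 alone was measured (mean level 17.1 CPM), and Ptprc had none. Across all regions of these lists, 9 were higher and 4 lower of 60 (reticular cell), 13 and 5 of 73 (blood endothelial), 0 and 8 of 52 (lymphatic), 0 and 3 of 18 (leukocyte) and 3 and 5 of 45 (mural), where 12.4% of all regions were higher and 11.3% lower. The part of such cells in the results below was not tested.

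Levels are normalized CPM, that is, counts scaled to library size after a loess adjustment of each library, and changes are log2 of Notch2_cKO over control from edgeR's quasi-likelihood test, with SE the change divided by the square root of F. Distances run from the midpoint of the best window, and positions are in mm10. At an adjusted p under 0.05 over all regions, 9 of the 116 rose in Notch2_cKO, 20 fell and 87 did not pass. The share called was 25.0%, against 23.7% of all regions. By direction, 7.76% were higher against 12.4% of all regions, and 17.2% were lower against 11.3%. The median log2 change was -0.05, against 0.01 over all regions. Changes of at least 2-fold were called higher at 4 regions and lower at 5, where 9.90% of all regions passed in either direction, 5.49% higher and 4.41% lower. The groups did not overlap at 67 regions, with both Notch2_cKO libraries above both controls at 29 and below at 38. Among all regions these shares were 30.0% and 29.8%. With either control left out, the share called among the 116 fell below that of all regions in the same fit. The share lower was then below that of all regions without control 1, and only slightly above it without control 2. Those fits keep 1 control. The median log2 over the 116 was -0.05 without control 1 and -0.06 without control 2, against 0.01 over all regions in both. Without Notch2_cKO 1 it was -0.07, against -0.01. With DESeq2 4 were higher and 10 lower, 12.1% called against 11.6% of all regions. With each library centred on its median 8 were higher and 27 lower, 30.2% called against 26.9%.

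**Figure D1:**
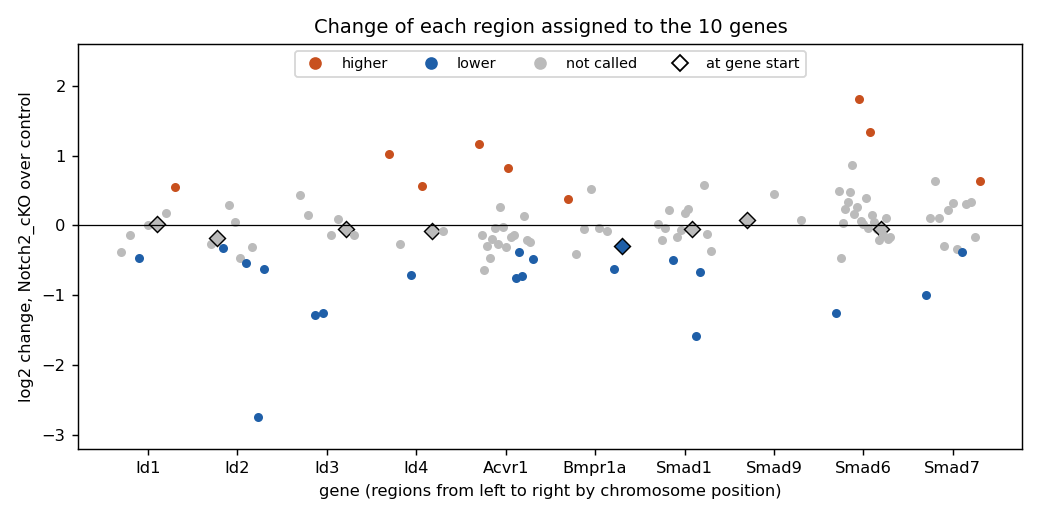
Log2 change of Notch2_cKO over control (vertical axis) for each of the 116 regions, set out by gene and by chromosome position within a gene; orange points were called higher, blue lower and grey neither, and diamonds mark regions at a gene start. The called regions lie away from the starts, apart from Bmpr1a, and the lowest point is an Id2 region at -2.75.

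The calls were then split by where the regions lay. Within 1 kb of a start there were 8 regions, of which 0 were called higher and 1 lower, against 9.03% of all start regions (5.12% higher, 3.91% lower). Inside the genes 10 of 49 were called, where 24.9% of all such regions were. Outside them 18 of 59 were called, against 24.1%. Among the 43 regions over 10 kb outside a gene 15 were called, 5 higher and 10 lower, against 25.6% of all regions so placed. No test of these differences was made, since the list was chosen with results known.

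At the starts 1 of 8 regions passed the test under loess. The Id2 start (chromosome 12, 25095901 to 25096500) was the most accessible region of the set, above 99.4% of all regions, with 98.3 and 90.3 CPM for controls against 76.3 and 90.9 for Notch2_cKO. Its groups overlapped, since Notch2_cKO 2 lay above control 2 (log2 -0.18, SE 0.09, edgeR adjusted p = 0.177). The Id4 start (chromosome 13, 48260601 to 48261250) had 52.3 and 51.0 CPM in the controls and 49.6 and 48.2 in Notch2_cKO (log2 -0.08, SE 0.09, edgeR adjusted p = 0.614). At the Id3 start (chromosome 4, 136143401 to 136144050) levels were 40.7 and 43.2 CPM against 41.1 and 39.6 (log2 -0.05, SE 0.10), and the groups overlapped. The Id1 region at the gene's lower coordinate (chromosome 2, 152736101 to 152736500) was less open, with 13.7 and 15.1 CPM in the controls and 14.8 and 14.5 in Notch2_cKO (log2 0.02, SE 0.14). These groups overlapped too. The promoter table gave no strand for Id1, so either end of the gene could serve as its start.

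Smad starts were as even. Smad1 had 43.9 and 45.8 CPM in the controls and 45.7 and 40.6 in Notch2_cKO (log2 -0.05, SE 0.10), and Smad6 had 26.7 and 27.9 against 27.6 and 25.0 (log2 -0.05, SE 0.12). Smad9 was lower in level and wider in spread, with 15.1 and 16.7 CPM against 18.6 and 14.6 (log2 0.08, SE 0.14). In all 3 the groups overlapped. Bmpr1a was the only start called: its region (chromosome 14, 34502501 to 34502950) had 51.7 and 59.6 CPM in the controls and 48.3 and 42.2 in Notch2_cKO (log2 -0.29, SE 0.10, edgeR adjusted p = 0.0488). That call was lost without control 1, without control 2 (edgeR adjusted p = 0.499) and without Notch2_cKO 2, and also with limma and with a replicate block. No region within 1 kb of a start or end was analysed for Acvr1 or Smad7. Scaling moved the starts unevenly. The median over the 8 was -0.05 with loess, -0.17 with TMM and -0.26 with median centring. Over all 11620 start regions it was 0.01, -0.08 and -0.17. With TMM the Smad9 and Id1 starts moved little and upward, to log2 0.10 and 0.04. The Id2 start was called lower in 4 of 11 alternatives, with TMM (log2 -0.43), median centring (log2 -0.52) and DESeq2 (log2 -0.43), and under loess without Notch2_cKO 2 (log2 -0.31). The Id4 start was called lower with median centring (log2 -0.31).

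**Figure D2:**
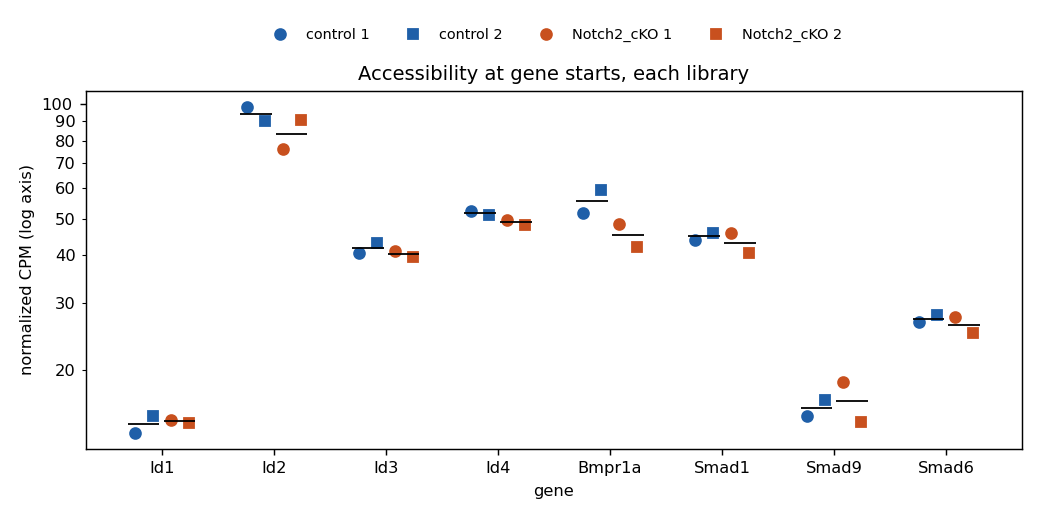
Normalized CPM on a log axis at the 8 gene starts, with 1 point per library (blue control, orange Notch2_cKO, circles replicate 1 and squares replicate 2) and black lines at group means. The groups overlap at all starts but Id4 and Bmpr1a, and Id2 is the most open in every library.

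Id2, an inhibitor of E proteins known for its part in lymphoid tissue and innate lymphoid cells, had 4 lower regions, 0 higher and 6 that did not pass out of 10. The shares of all regions, 12.4% higher and 11.3% lower, stand beside this count and each count per gene or surroundings below. Upstream of the gene, at 63258 bp, the region at chromosome 12, 25159051 to 25159500 was nearly closed in Notch2_cKO. It held 67 and 53 counts in control libraries and 12 and 4 in Notch2_cKO ones, or 2.87 and 2.15 CPM against 0.398 and 0.305. The groups lay far apart, a 6.71-fold lower level (log2 -2.75, SE 0.34, edgeR adjusted p = 9.30e-06), and the region remained called without control 2 (log2 -2.88, edgeR adjusted p = 7.01e-10). Its next nearest gene, Kidins220, lay 96198 bp away.

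A stronger Id2 region stood 31508 bp upstream (25127251 to 25127900). It had 42.1 and 39.8 CPM in the controls and 27.4 and 29.3 in Notch2_cKO, and the groups did not overlap (log2 -0.54, SE 0.11, edgeR adjusted p = 0.00103). The third lower region of Id2 was 2808 bp upstream (25098701 to 25099100), next to the start region. Its levels of 45.2 and 46.5 CPM fell to 37.8 and 35.6 (log2 -0.32, SE 0.10, edgeR adjusted p = 0.0263), a call lost without control 1 or control 2 and with a replicate block. The fourth, 69808 bp upstream, had 4.62 and 3.93 CPM against 2.86 and 2.61 (log2 -0.62, SE 0.20, edgeR adjusted p = 0.0307), and was not called without control 1, without Notch2_cKO 1 or with DESeq2. The median over the 10 Id2 regions was -0.32. The neighbourhood was lower too: of 43 regions of other genes or of no gene within 500 kb of Id2, 16 were lower and 3 higher, with the same median of -0.32. Of the 10 Id2 regions, 6 were called lower with median centring, where 17616 of all 110110 regions were lower. The median over the 10 Id2 regions was -0.28 without control 1 and -0.39 without control 2.

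Id3, a close relative of Id1 and a BMP target, had 2 lower regions, 0 higher and 6 that did not pass. Both lower regions stood side by side upstream of the gene. The one 23572 bp upstream (chromosome 4, 136119901 to 136120500) had 4.63 and 6.27 CPM in the controls and 2.37 and 2.15 in Notch2_cKO. Each Notch2_cKO library was below each control (log2 -1.25, SE 0.21, edgeR adjusted p = 0.000237), and without control 2 the change was smaller but called (log2 -1.01, edgeR adjusted p = 0.00428). Its neighbour 25122 bp upstream (136118501 to 136119000) held 30 and 38 counts in control libraries and 17 and 8 in Notch2_cKO ones (log2 -1.28, SE 0.34, edgeR adjusted p = 0.00980). That call was lost without control 2 (edgeR adjusted p = 0.153), without Notch2_cKO 1 and with DESeq2. The regions on either side did not pass: one 26572 bp upstream had 16.2 and 15.7 CPM against 18.1 and 17.1 (log2 0.15, SE 0.13), and another 20322 bp upstream had 8.44 and 7.10 against 6.28 and 8.30 (log2 -0.13, SE 0.18). Of 71 surrounding regions within 500 kb, 5 were higher and 1 lower (median log2 0.17).

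**Figure D3:**
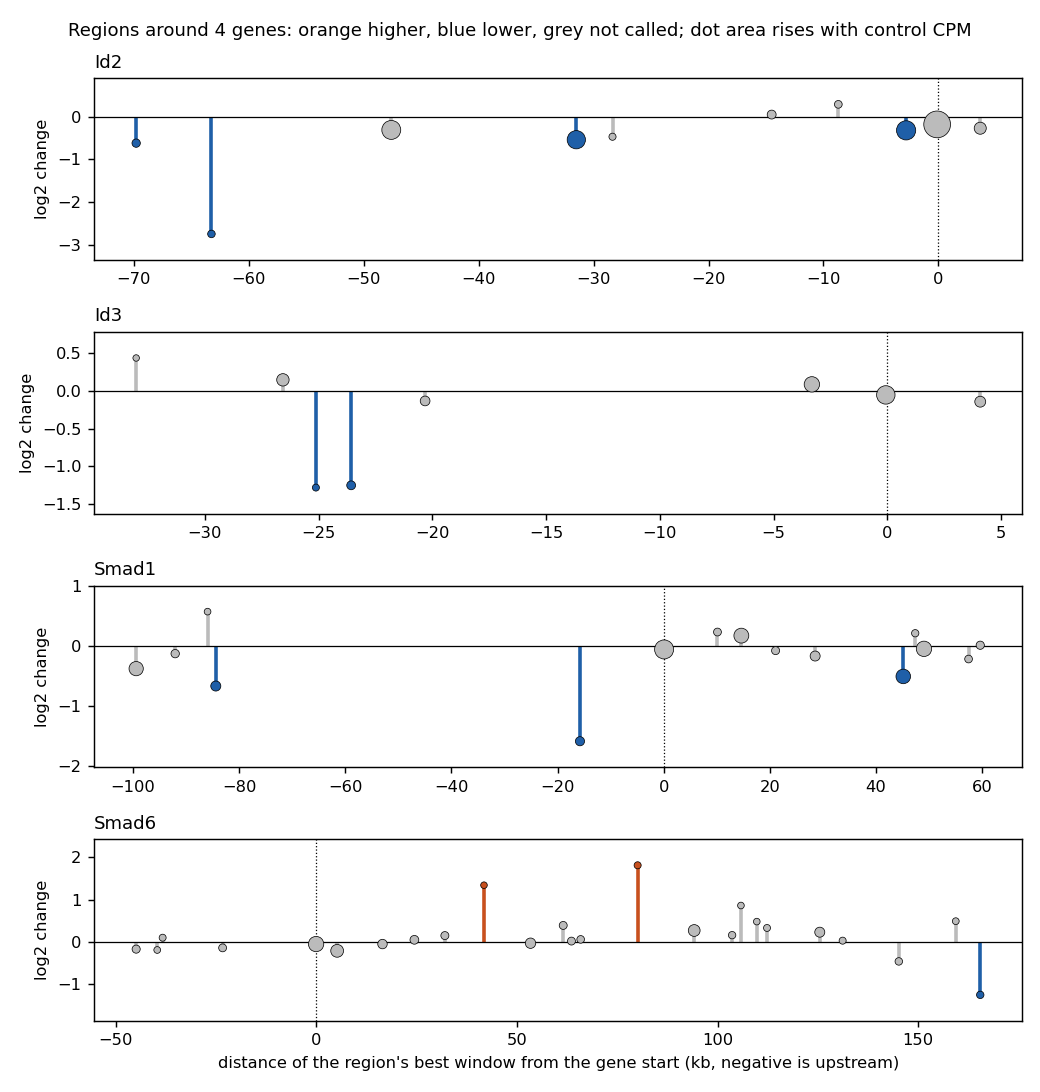
Log2 change (vertical axes, each with its own range) against distance from the gene start in kb for the regions of Id2, Id3, Smad1 and Smad6, with negative distances upstream and dot area rising with control CPM. Large grey dots at distance 0 are the start regions, and the longest blue lines of Id2, Id3 and Smad1 lie upstream, while both orange lines of Smad6 lie past its start.

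Id1 went both ways, with 1 region higher, 1 lower and 5 that did not pass. The higher one lay 4490 bp beyond the gene's higher coordinate (chromosome 2, 152741501 to 152742150), with 14.6 and 17.4 CPM in the controls and 24.2 and 22.6 in Notch2_cKO. These groups did not overlap (log2 0.55, SE 0.13, edgeR adjusted p = 0.00426), and the call was lost without control 1. The lower one, 6501 bp from the other end (152729451 to 152730100), had 10.0 and 10.1 CPM against 7.63 and 6.77 (log2 -0.47, SE 0.16, edgeR adjusted p = 0.0352) and was lost without either control, without Notch2_cKO 2, with DESeq2 and with a replicate block. Id1's most accessible region, 1051 bp outside the gene, had 19.2 and 21.2 CPM against 20.9 and 19.4 (log2 0.01, SE 0.13).

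Id4, the member of the family best known from neural and mammary cells, had 2 higher regions, 1 lower and 3 that did not pass. At 23416 bp upstream (chromosome 13, 48237401 to 48238050) levels rose from 6.52 and 7.46 CPM to 9.37 and 11.8 (log2 0.57, SE 0.17, edgeR adjusted p = 0.0164). The lower region lay only a few kb farther out, at 29666 bp (48231101 to 48231800), with 3.53 and 3.27 CPM against 1.79 and 2.61 (log2 -0.71, SE 0.23, edgeR adjusted p = 0.0324). The other higher region, 67016 bp upstream (48193851 to 48194350), rested on few counts, 13 and 22 for controls and 49 and 16 for Notch2_cKO (log2 1.02, SE 0.34, edgeR adjusted p = 0.0334). None of the 3 calls held without control 1 or with DESeq2. The lower region and the one at 67016 bp were also lost with limma and without Notch2_cKO 1, the lower region without control 2, and the one at 23416 bp without Notch2_cKO 2. Over all 31 Id regions 3 were higher and 8 lower, 35.5% called against 23.7% of all regions. Without control 1 the share called fell below that of all regions in the same fit, and without control 2 it stayed above. The median log2 of the 31 was -0.14, and it was -0.10 without control 1 and -0.26 without control 2.

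Among the receptors, Acvr1 had 2 higher and 4 lower of 21 regions. Acvr1 encodes a type I receptor kinase for BMPs and activins. The region 37188 bp past the gene's far end (chromosome 2, 58408901 to 58409550) had 12.6 and 11.3 CPM in the controls and 24.5 and 29.1 in Notch2_cKO. Both Notch2_cKO libraries were above both controls, a 2.23-fold rise (log2 1.16, SE 0.14, edgeR adjusted p = 5.20e-06; without control 2 log2 1.08, edgeR adjusted p = 1.98e-05). Its next gene, the related receptor gene Acvr1c, lay 51354 bp away. Inside Acvr1, 60828 bp past the start (58505701 to 58506200), levels rose from 10.4 and 7.84 to 13.9 and 19.1 CPM (log2 0.82, SE 0.17, edgeR adjusted p = 0.00158; 0.0388 without control 2).

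The 4 lower Acvr1 regions all lay inside the gene and nearer its start, from 4378 to 48178 bp past it. The strongest of them, which was also the most accessible Acvr1 region (58532101 to 58532750), had 47.1 and 48.0 CPM in the controls and 37.5 and 35.6 in Notch2_cKO (log2 -0.38, SE 0.10, edgeR adjusted p = 0.00903). A region 23878 bp past the start fell from 7.08 and 6.21 to 3.57 and 4.78 CPM (log2 -0.72, SE 0.19, edgeR adjusted p = 0.00855). A further one at 48178 bp fell from 3.31 and 3.43 to 2.05 and 1.92 CPM (log2 -0.75, SE 0.22, edgeR adjusted p = 0.0172). In none of the 4 did the groups overlap, which adds no support, since they were picked for being called. Without control 2 the region at 23878 bp alone was called (edgeR adjusted p = 0.0108), and without control 1 none of them was. With DESeq2 the region of highest level alone was called, and without Notch2_cKO 1 again that region alone.

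Bmpr1a, the type I receptor for BMP2 and BMP4, had 1 higher and 2 lower of 8 regions, counting the start region above. The higher one, inside the gene 53386 bp past its start (chromosome 14, 34449651 to 34450350), had 22.8 and 22.4 CPM in the controls and 27.9 and 31.4 in Notch2_cKO (log2 0.38, SE 0.12, edgeR adjusted p = 0.0229). A second lower region, 5836 bp past the start, had 3.44 and 3.19 CPM against 2.02 and 2.38 (log2 -0.62, SE 0.22, edgeR adjusted p = 0.0458). All 3 Bmpr1a calls were lost without control 1, without control 2 and with a replicate block. The higher one was also lost with median centring and DESeq2, and the one at 5836 bp with TMM, DESeq2 and limma and without Notch2_cKO 1. Over both receptors 3 regions were higher and 6 lower of 29, 31.0% called against 23.7% of all regions. With either control left out, the share called fell below that of all regions in the same fit. With a replicate block 17.2% were called, against 21.0% of all regions. The median log2 of the 29 was -0.20, and it was -0.12 without control 1 and -0.29 without control 2.

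Smad1, a transcription factor activated by BMP receptors, had 3 lower regions, 0 higher and 12 that did not pass. The largest fall was 15772 bp upstream (chromosome 8, 79414851 to 79415500), where the controls had 5.88 and 6.54 CPM and Notch2_cKO had 1.78 and 2.62. The groups were well apart, a 3.00-fold lower level (log2 -1.58, SE 0.21, edgeR adjusted p = 2.13e-05; without control 2 log2 -1.49, edgeR adjusted p = 3.01e-06). Inside the gene, 45128 bp past the start (79354001 to 79354650), levels fell from 24.6 and 23.7 to 15.8 and 18.7 CPM (log2 -0.50, SE 0.13, edgeR adjusted p = 0.00753), a call lost without control 1 or Notch2_cKO 1. The third, 84372 bp upstream (79483501 to 79484100), had 8.48 and 8.76 CPM against 4.86 and 6.43 (log2 -0.66, SE 0.17, edgeR adjusted p = 0.00922) and was lost without Notch2_cKO 1 and with DESeq2. In the surroundings of Smad1, 11 of 43 regions within 500 kb were higher and 4 lower (median log2 0.26). Smad9, a further BMP-activated Smad, had 3 regions and none was called. Those past its start had 3.10 and 2.54 CPM against 4.35 and 3.00 (log2 0.45, SE 0.22) and 1.69 and 1.73 against 2.05 and 1.38 (log2 0.08, SE 0.26).

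Smad6, the inhibitory Smad that acts mainly on the BMP branch, had more regions than any other gene of the set, and 22 of its 25 did not pass. The region 11076 bp beyond its far end (chromosome 9, 63941651 to 63942250) held 33 and 40 counts in control libraries and 185 and 58 in Notch2_cKO ones, or 1.47 and 1.59 CPM against 6.01 and 4.46. Both Notch2_cKO libraries were far above the controls, a 3.52-fold rise (log2 1.81, SE 0.22, edgeR adjusted p = 8.39e-06; without control 2 log2 1.86, edgeR adjusted p = 3.19e-07). No other protein-coding gene lay within 100 kb of it, the next being Lctl at 175123 bp. Inside Smad6, 41785 bp past the start (63980101 to 63980650), a weak region rose from 0.507 and 0.783 to 1.64 and 1.66 CPM (log2 1.34, SE 0.33, edgeR adjusted p = 0.00495), from 12 and 19 counts in the controls. The lower region was at the far edge of the assigned range, 96476 bp from the gene (63856351 to 63856950), with 1.98 and 2.43 CPM against 0.927 and 0.917 (log2 -1.25, SE 0.28, edgeR adjusted p = 0.00270). Smad3, the next nearest gene to that lower region, lay almost as close, at 98606 bp. All 3 calls held without each library in turn and under both other scalings, and the last 2 were lost with DESeq2.

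Smad7, which restrains TGF-beta and BMP receptors alike, had 1 higher and 2 lower of 13 regions, all of them small changes or weak regions. Inside the gene (chromosome 18, 75386101 to 75386700) levels fell from 26.1 and 25.7 to 19.6 and 20.3 CPM (log2 -0.38, SE 0.12, edgeR adjusted p = 0.0266). Outside it, 35115 bp from the gene's lower coordinate, a region fell from 1.27 and 1.97 to 0.800 and 0.834 CPM (means 1.62 ± 0.491 and 0.817 ± 0.0241, SD, n = 2 each, edgeR adjusted p = 0.0301). The higher one, 11515 bp from the other end (75407201 to 75407700), had 2.39 and 2.39 CPM against 3.64 and 3.76 (log2 0.63, SE 0.21, edgeR adjusted p = 0.0340). None of these 3 calls held without control 2, without Notch2_cKO 1 or with DESeq2. The most accessible Smad7 region, 24315 bp outside the gene, had 33.8 and 34.2 CPM against 39.4 and 33.8 (log2 0.11, SE 0.11).

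Of the 29 called regions, 7 kept their call under each of 11 alternatives that tested them (scaling, tool, filter, replicate block and left-out library, the filter leaving out the Id2 region at 63258 bp): the Id2 regions 31508 and 63258 bp upstream, the Id3 region 23572 bp upstream, the Smad1 region 15772 bp upstream, both higher Acvr1 regions and the Smad6 region 11076 bp beyond the gene. Of these 4 were lower and 3 higher. The like share was not worked out over all called regions, so 7 of 29 cannot be judged high or low. Among the 11 was a replicate block with the numbers crossed between groups, which was added after the data were seen. It kept all 29 calls. None of the 29 turned to a call in the opposite direction in any alternative run.

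**Figure D4:**
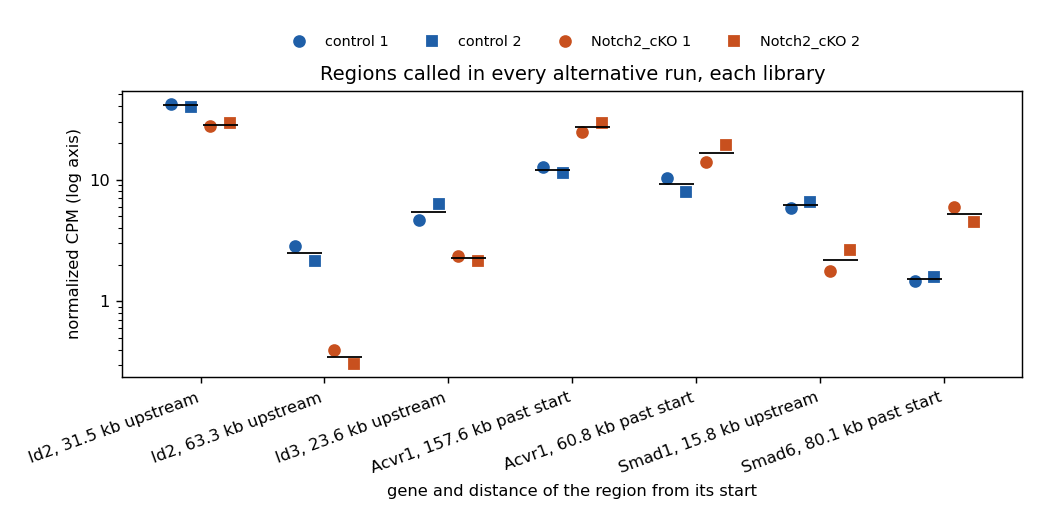
Normalized CPM on a log axis for the 7 regions called under each alternative that tested them, with points per library and group means as black lines (blue control, orange Notch2_cKO, circles replicate 1 and squares replicate 2). In each region both Notch2_cKO libraries lie on the same side of both controls, the widest gap being at the Id2 region 63258 bp upstream. The regions were picked for their calls in these libraries, so this separation adds no support.

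The rest of the pathway was measured as 4 further lists, with 273 regions in all, of which 39 were higher and 15 lower (median log2 0.02). The 4 regions of Bambi, a decoy receptor, stand in 2 of the lists and none was called. This is 14.3% higher and 5.49% lower, against 12.4% and 11.3% of all regions. The split depended on scaling, with 72.2% of calls higher under loess and 62.7% (42 higher, 25 lower) with TMM, and 51.5% with median centring (35 higher, 33 lower), and without Notch2_cKO 1 it was 52.2% under loess (24 higher, 22 lower). Without control 2 fewer were called, as was so among all regions, and the median log2 over the 273 was 0.00. Other BMP receptors and co-receptors had 8 higher, 1 lower and 54 regions that did not pass (median log2 0.03). In this list 14.3% were called, against 23.7% of all regions. At Rgma, a BMP co-receptor, 5 of 12 regions were higher and 1 lower, and a region 23320 bp from the gene rose from 8.55 and 9.64 to 21.8 and 18.4 CPM (log2 1.15, SE 0.15, edgeR adjusted p = 1.04e-05). Inside Eng, the endoglin gene and a co-receptor known from endothelium, a region rose from 2.63 and 2.45 to 8.20 and 5.70 CPM (log2 1.50, SE 0.21, edgeR adjusted p = 2.55e-05). The single region called at Acvr2a, a type II receptor gene, was higher (log2 0.50, SE 0.13), a call lost without control 1.

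Other Smads and Smad regulators had 8 higher, 3 lower and 81 regions that did not pass (8 higher and 10 lower with median centring, 4 and 9 without Notch2_cKO 1). Regions rose inside Ski, a corepressor of Smads (4.53 and 5.68 to 15.3 and 10.4 CPM, log2 1.37, SE 0.19, edgeR adjusted p = 2.45e-05), inside Smurf1, a ubiquitin ligase for Smads (log2 1.08, SE 0.18), and inside Smad3, a TGF-beta Smad (log2 1.62, SE 0.31). A region 40440 bp from Smad2 fell from 2.73 and 2.78 to 1.12 and 0.766 CPM (log2 -1.46, SE 0.27, edgeR adjusted p = 0.000462). Smad5, the remaining BMP-activated Smad, had 6 regions and none was called. Over this whole list 12.0% of regions were called, against 23.7% of all regions. Near the shared partner gene Smad4, 1 of 11 regions was lower (log2 -0.68, SE 0.21), a call lost without either control.

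Genes known to respond to BMP had 16 higher, 6 lower and 51 regions that did not pass (median log2 0.08). These shares were 21.9% higher and 8.22% lower, against 12.4% and 11.3% of all regions. With DESeq2 5 were higher and 1 lower, 8.22% called against 11.6% of all regions. Without control 2 the share called fell below that of all regions in the same fit, and without control 1 it stayed above. The median log2 of the list was 0.00 without control 2. At Runx2, a transcription factor of bone formation, 9 of 31 regions were higher and 2 lower. A region inside Runx2 went from 7 and 14 control counts to 165 and 66, or from 0.309 and 0.558 to 5.37 and 5.07 CPM (log2 3.56, SE 0.28, edgeR adjusted p = 6.42e-08). Msx1, a homeobox gene, had 4 higher and 1 lower of 17 regions, with one rising 23091 bp away (log2 1.02, SE 0.21, lost without Notch2_cKO 1) and another falling 49365 bp away, from 17.4 and 16.4 to 7.21 and 8.55 CPM (log2 -1.13, SE 0.15, edgeR adjusted p = 1.89e-05). Single regions were higher near Msx2 (log2 0.91, SE 0.20, lost without control 2) and lower near Dlx5 (log2 -0.88, SE 0.22, lost without control 1 and with DESeq2) and Hey1 (log2 -0.67, SE 0.22), the last also a Notch target and lost without either control. E proteins, the partners that Id proteins bind, had 7 higher, 5 lower and 37 regions that did not pass, and 4 higher and 7 lower without Notch2_cKO 1 and 5 and 8 with median centring. The share called was 24.5%, against 23.7% of all regions. Of the 12 called, 6 higher ones belonged to Tcf12 and all 5 lower ones to Tcf4. The Tcf12 region of smallest p, 78107 bp from the gene, rose from 9 and 5 counts to 75 and 30 (log2 3.02, SE 0.36, edgeR adjusted p = 4.79e-06), and inside Tcf4 a region fell from 10.6 and 9.27 to 4.21 and 5.90 CPM (log2 -1.03, SE 0.18, edgeR adjusted p = 0.000333).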

How the data were processed

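The submitters' processing notes name build mm10, with Bowtie2 2.4.5, Trim Galore 0.6.7, cutadapt, Picard 2.27.5, SAMtools 1.14 and deepTools as tools. How peaks were called, windows filtered or reads shifted is not given in the sources used here. For 678058 windows of 300 bp the authors deposited whole-number counts. Although loess normalization is stated in the labels, library totals differ, and the values were treated as raw counts. Regions were merged from windows up to 100 bp apart, and genes came from RefSeq for GRCm38.p6 (21896 protein-coding genes; among several overlapping genes the shortest was taken). Gene starts used the strand of RefSeq's promoter table, or either gene end where it gave none. Loess offsets were computed with limma 3.58.1, and edgeR 4.0.16 (R 4.3.3) fitted genotype over all 4 libraries without a replicate term, adjusted by Benjamini and Hochberg over 110110 regions. The script was tested on simulated data. With 2 against 2 libraries an exact permutation p cannot go below 0.333, so none is given. Named were, per gene, its start region, its most accessible region and up to 3 called regions of smallest p per direction, with neighbours for comparison, and per pathway list up to 3 genes per direction. The regions Id2 at 69808 bp, Id3 at 20322 and 26572 bp and those of Smad9 past its start were added after values were seen. Members and lists were chosen with earlier results of these data known. Replicates differed by more than sampling noise (chi-square per region of 1.89 for the control pair and 2.72 for the Notch2_cKO pair), and none were merged. Alternatives were DESeq2 1.42.0, limma, TMM, median centring, a filter, a replicate block, another threshold and distance, and each library left out.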

Additional observations from a re-analysis of the deposited data

How the results depend on the processing

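Counts below give higher then lower regions. Main values were 13698 and 12405 over all regions, 9 and 20 at the 10 genes, and 39 and 15 at the other pathway genes. DESeq2 gave 7364 and 5433, 4 and 10, and 20 and 8. At an adjusted p under 0.01 there were 8495 and 7079, 5 and 10, and 23 and 7. Genes within 10 kb gave 4 and 10 at the 10 genes and 24 and 8 at the other pathway genes. At the other pathway genes TMM gave 25 lower and median centring 33. Over all regions 52.5% of calls were higher with loess and 40.5% with median centring, which shifted the median log2 by -0.09. Leaving out each library in turn gave 8856 to 15579 and 8035 to 14677 over all regions, 5 to 11 and 8 to 24 at the 10 genes, and 23 to 45 and 10 to 22 at the other pathway genes. Those fits take the spread of a group reduced to 1 library from the other group. The low-level filter (the lowest 25% left out) removed 6 of the 29 called regions and kept the other 23, limma kept 24 and DESeq2 12.

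Replicate numbers are shared only as numbers in the titles. With them as a replicate block, 12211 and 10946 regions were called, 7 and 14 at the 10 genes and 35 and 12 at the other pathway genes, and 21 of the 29 calls were kept. Deviations of same-numbered libraries correlated at -0.14 over 110110 regions, so a crossed replicate block was added after seeing the data, which gave 18065 and 16893, 13 and 27, and 54 and 31. No named region changed sign with a call in any alternative. The cause of these shifts was not tested. Depth limits the weak regions most, such as the Id2 region with 12 and 4 counts in Notch2_cKO.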
